A study of Mus musculus with 48 samples.

Results

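Triglyceride, the neutral fat that cells store in lipid droplets, is made by one set of enzymes and broken down by another, and the genes described here are 10 that act in these processes. They are the lipase genes Pnpla2, Lipe and Mgll, the lipase activator gene Abhd5, the droplet coat genes Plin2, Plin3 and Plin4, and the synthesis genes Acsl3, Dgat1 and Dgat2. All 10 were matched by symbol among the 47643 Ensembl genes listed in each count file. They were chosen by their role and with one measured value in view, the 0 counts of Pnpla2 in perisynaptic processes, so the comparison of compartments below describes these genes and is not independent evidence about them.

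The mice carried Tg(Aldh1l1-eGFP/Rpl10a) JD130Htz, in which the Aldh1l1 promoter places a GFP-tagged ribosomal subunit in astrocytes, and ribosome-bound RNA of the dorsal hippocampus was pulled down with an antibody to GFP. From each of 3 animals, named C1 to C3, there was one whole-astrocyte preparation (Astro) and one preparation of perisynaptic astrocytic processes (PAP), the fine branches that touch synapses. Both groups share the transgene, the tissue and the antibody, and no treatment, age or sex is given in the labels. Each preparation was sequenced as 8 technical replicates, which were summed into 6 libraries, so n = 3 per group and the animal is the replicate. Library totals were 18707844 to 20293538 counts in Astro and 1829962 to 2980984 in PAP. Depth differed with compartment. In such bulk preparations fewer tagged ribosomes or cells and less RNA on each cannot be told apart.

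In a resting cell, fatty acids are activated to acyl-CoA, joined to glycerol and stored as triglyceride in droplets that bud from the endoplasmic reticulum and are coated with perilipins. On demand, adipose triglyceride lipase (the product of Pnpla2) removes the first fatty acid with the help of its activator ABHD5, hormone-sensitive lipase (Lipe) acts on the diglyceride, and monoglyceride lipase (Mgll) on the monoglyceride. In brain, astrocytes are known to hold lipid droplets and to take up fatty acids released by neurons, and monoglyceride lipase is also known for degrading an endocannabinoid.

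Acsl3, Mgll and Plin3 were the members present in all 3 PAP libraries above 3 counts, a level below which a gene is treated here as not detected. Together they made up 68.8% to 79.5% of the summed level of the 10 genes in Astro and 92.0% to 99.9% in PAP. Levels are given as CPM, the count scaled by library total and TMM factor. Pnpla2 and Plin2 had 0 counts in every PAP library, Lipe and Plin4 had 3 or fewer, and Abhd5, Dgat1 and Dgat2 were detected in some PAP libraries and not in others. In Astro all 10 genes were above 3 counts in each library.

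**Figure D1:**
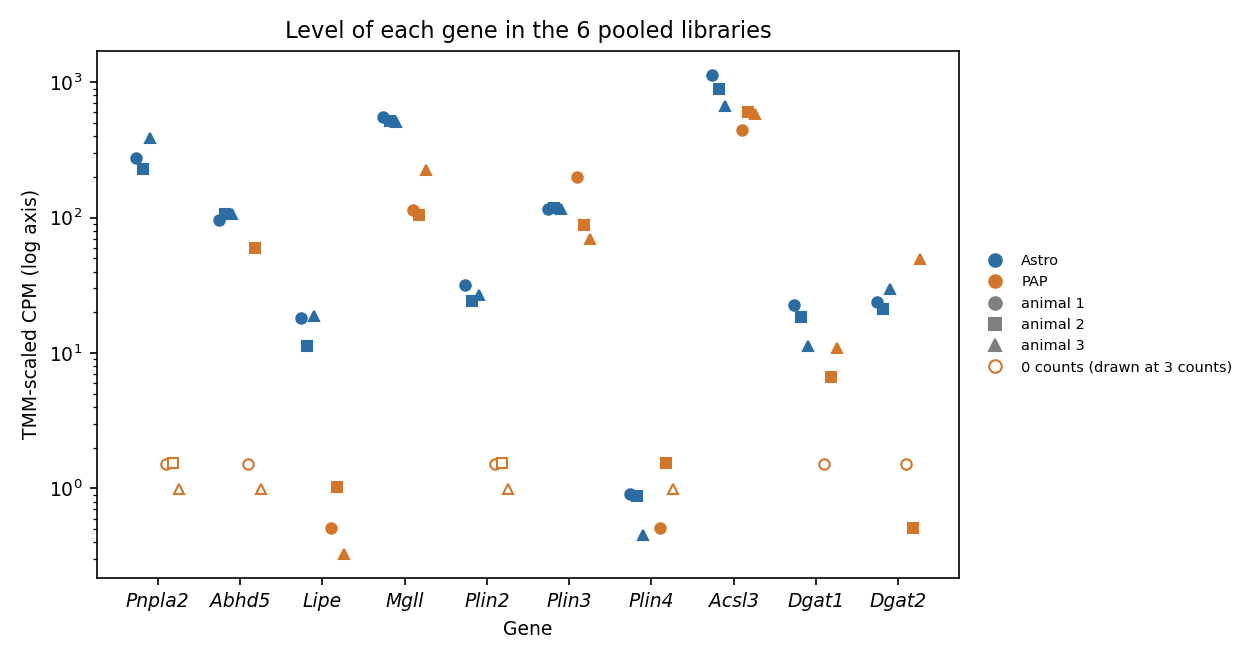
Level of each of the 10 genes (log axis, TMM-scaled CPM) in the 3 Astro libraries (blue) and the 3 PAP libraries (orange), with 1 symbol per animal; open symbols mark libraries with 0 counts and are drawn at the level of 3 counts. All PAP symbols of Pnpla2 and Plin2 are open, while Acsl3, Mgll and Plin3 stay at 69.7 CPM or more in all 6 libraries.

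Per kilobase of exonic length, which allows genes to be compared, the order of mean Astro levels ran from Acsl3 at 207 ± 54.0 CPM per kb (SD, n = 3) through Mgll at 104 ± 5.02, Pnpla2 at 98.4 ± 27.7, Plin3 at 30.7 ± 0.23, Abhd5 at 17.3 ± 1.06, Dgat2 at 8.07 ± 1.40, Plin2 at 7.82 ± 1.10, Dgat1 at 5.71 ± 1.86 and Lipe at 2.74 ± 0.71 to Plin4 at 0.129 ± 0.044. The ranges of the 3 libraries overlapped between the neighbours Mgll and Pnpla2, Dgat2 and Plin2, and Plin2 and Dgat1, and did not overlap between the other neighbours. In PAP, Acsl3 was again the highest at 125 ± 20.0 CPM per kb (SD, n = 3), and its range did not overlap that of the next gene. Plin3, at 31.4 ± 18.5, and Mgll, at 29.0 ± 13.1, overlapped each other in PAP, whereas in Astro the level of Mgll per kb was above that of Plin3 in every library.

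The libraries were compared with the edgeR quasi-likelihood test over the 14618 genes that passed a filter on low counts, with p-values adjusted over all of them. Of the 10 genes, 9 passed the filter, and Plin4 did not. Of the 9, 4 were called lower in PAP at an adjusted p under 0.05 (Pnpla2, Lipe, Mgll and Plin2), where 15.4% of all genes tested were called lower. None was called higher by edgeR, where 5.92% of all genes were, and 0 were higher at an unadjusted p under 0.05, by DESeq2 or by limma voom. In 7 of the 9 the PAP libraries all lay below the Astro libraries, a pattern that 35.1% of all genes tested showed. The median log2 fold change of the 9 was -1.84, against -0.53 over all genes tested. Nothing is read from these counts or this median: Pnpla2 was chosen for its PAP counts, and Pnpla2, Plin2 and Lipe passed the filter through their Astro counts alone. Abhd5, Dgat1 and Dgat2 had more than 3 counts in 1, 2 and 1 PAP libraries. At n = 3 per group they too needed their Astro counts to pass. With the replicate block, in which the animal is a term of the fit, the single call was Pnpla2, the gene chosen for its PAP counts, and the calls of Lipe, Mgll and Plin2 were lost. In that fit 0.0342% of all genes tested were called lower (5 genes) and 0.876% higher (128 genes), the reverse of the order without the block. The calls of Lipe, Mgll and Plin2 were also lost when any single Astro library was left out, and that of Pnpla2 without Astro animal 1 or 3. Calls over all genes fell in the same fits, from 21.3% of the genes tested in either direction to 0.889%, 0.993% and 1.09% without Astro animals 1, 2 and 3.

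Pnpla2 (ENSMUSG00000025509, chromosome 7, 141455198 to 141460743, plus strand) encodes the lipase that starts triglyceride breakdown. Counts of 5135, 3891 and 7720 were found in Astro, in the order of the animals, and none in any PAP library. All 24 PAP technical replicates were at 0. At the mean Astro share, the PAP libraries would have held 585, 580 and 904 counts. The Astro level was 297 ± 83.7 CPM (SD, n = 3), at least 220-fold above the mean PAP level that 3 counts per library would give. No exon of another annotated gene overlapped its exons.

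As background only, since its absence from PAP is what chose Pnpla2, genes at 0 in PAP were counted over all genes by Astro level. Of 2240 genes with a mean Astro level of 100 CPM or more, 1941 (86.7%) had counts in every PAP library, 246 (11.0%) were at 0 in one of them, 46 (2.05%) in a pair, and 7 (0.312%) in all 3. Pnpla2 is one of those 7. Among 7511 genes with a mean Astro level of 10 to 100 CPM, 431 (5.74%) were at 0 in all 3 PAP libraries, and 2028 (27.0%) and 1243 (16.5%) in one and a pair. No gene of either level was at 0 in an Astro library.

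Abhd5 (chromosome 9, 122351608 to 122381524, plus strand) encodes the protein that activates this lipase. Its counts were 1795, 1826 and 2120 in Astro and 0, 117 and 0 in PAP. The 117 counts of PAP animal 2 were spread over all 8 of its technical replicates, at 10 to 26 counts each, while the 16 technical replicates of the other animals were all at 0. In animal 2 the PAP level was 60.0 CPM against 107 in Astro, a log2 ratio of -0.83. Over the 3 animals the log2 fold change was -2.37 ± 2.08 (SE), with an adjusted p of 0.537. Its size depended on the fit, at -7.375 with the replicate block (adjusted p 0.232) and -6.046 with voom. With voom on all 6 libraries the adjusted p was 0.0331, so the call depended on the method. Without PAP animal 2 the PAP libraries left were at 0. Abhd5 then entered through its Astro counts alone, and no call is read from that fit. The exons share 950 bases (16.0%) with an antisense gene on the other strand.

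Lipe (chromosome 7, 25379527 to 25398710, minus strand), the gene of hormone-sensitive lipase, had 341, 194 and 373 counts in Astro and 1, 2 and 1 in PAP. The groups did not overlap. Summed over libraries, its share was 28.4-fold lower in PAP (95% exact Clopper-Pearson interval 11.1 to 104.5, counting error only). Lipe entered the test through its Astro counts alone, so these values are a description and its call is not read as a result. Of the Lipe exons, 15.6% overlap an antisense gene.

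Mgll (chromosome 6, 88724412 to 88828360, plus strand) was the lipase gene that stayed detectable in PAP. Its counts were 10407, 8927 and 10032 in Astro and 224, 203 and 681 in PAP, where its mean Astro share would have given 1040, 1030 and 1606. The level was 556, 521 and 507 CPM in Astro and 114, 104 and 224 CPM in PAP, so PAP was lower in 3 of 3 animals and PAP animal 3 stood above the other PAP libraries. Mgll fell 3.58-fold, its log2 fold change being -1.84 ± 0.38 (SE; adjusted p 0.0208, with the replicate block 0.199, and with voom 0.0682). The log2 ratio within animals was -2.29, -2.32 and -1.18. Leaving out any single Astro library gave an adjusted p of 0.0873 to 0.0975.

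**Figure D2:**
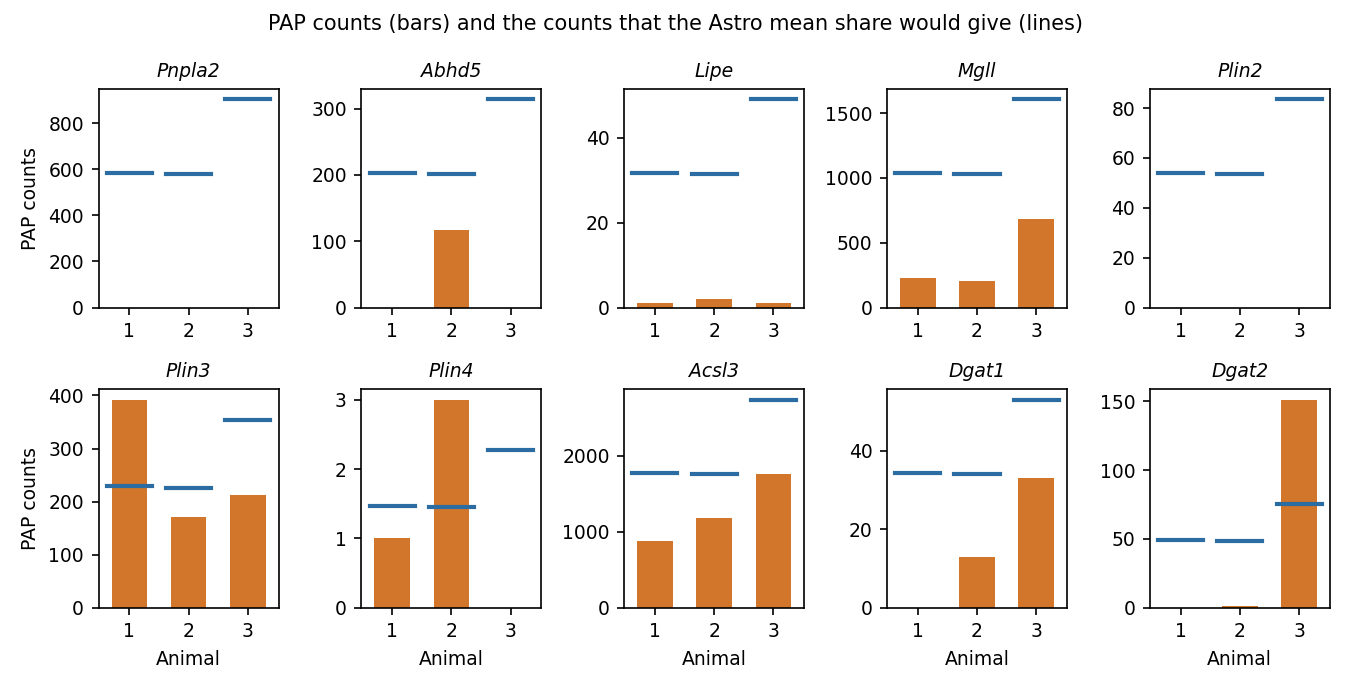
PAP counts of each gene by animal (bars) beside the counts that the mean Astro share would give at the same scaled total (blue lines), each panel on its own count axis from 0. Pnpla2 and Plin2 have no bar, Mgll and Acsl3 lie under the line in every animal, and Dgat2 exceeds it in animal 3, with 151 counts against 75.7.

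The coat genes differed from each other. Plin2 (chromosome 4, 86648386 to 86670060, minus strand), whose protein covers droplets in most cell types, had 592, 412 and 528 counts in Astro and 0 in every PAP library. Its mean Astro share would have given 54.1, 53.5 and 83.5 counts in PAP. The Astro level of 27.5 ± 3.86 CPM (SD, n = 3) was at least 20-fold above the mean PAP level of 3 counts per library. Plin2 too entered the test through Astro alone, and its call is not read as a result.

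Plin3 (chromosome 17, 56277476 to 56292873, minus strand) encodes a perilipin that is also found in the cytosol. It had 2164, 2006 and 2288 counts in Astro and 392, 171 and 212 in PAP. The Astro libraries lay between 116 and 117 CPM, whereas the PAP libraries were spread around them at 199, 87.7 and 69.7 CPM. The groups overlapped, and the log2 fold change was 0.03 ± 0.50 (SE) with an adjusted p of 0.979. PAP was above Astro in animal 1, with a log2 ratio of 0.78, and below it in animals 2 and 3, at -0.42 and -0.73. Its sign was not stable across other processing, at -0.13 with the replicate block and -0.60 without PAP animal 1, and neither passed.

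Plin4 (chromosome 17, 56100591 to 56109803, minus strand), which is best known from adipose tissue and muscle, was near the limit of detection in both compartments. It had 17, 15 and 9 counts in Astro and 1, 3 and 0 in PAP. The summed shares differed 1.28-fold, with a 95% exact Clopper-Pearson interval of 0.465 to 4.93 for Astro over PAP, so a difference was not detectable at this depth.

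Acsl3 (chromosome 1, 78657825 to 78707743, plus strand) encodes the acyl-CoA synthetase that is found on nascent droplets. Its counts were 21289, 15335 and 13216 in Astro and 873, 1181 and 1759 in PAP. Levels were 1138, 895.5 and 668 CPM in Astro and 443, 606 and 578.5 CPM in PAP. The PAP libraries all lay below the Astro libraries, with PAP animal 2 nearest to Astro animal 3. The log2 fold change of -0.73 ± 0.28 (SE), close to the median of all genes tested, did not pass (adjusted p 0.133), and passed in 1 of 15 alternatives, the DESeq2 Wald test (adjusted p 0.0494). Its log2 ratios within animals were -1.36, -0.56 and -0.21. The exons share 244 bases with Utp14b on the same strand.

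Dgat1 and Dgat2 encode unrelated enzymes that both add the last fatty acid in triglyceride synthesis. Dgat1 (chromosome 15, 76502015 to 76511953, minus strand) had 422, 316 and 224 counts in Astro and 0, 13 and 33 in PAP. The PAP libraries all lay below the Astro libraries, with PAP animal 3 at 10.9 CPM against 11.3 CPM in Astro animal 3. The log2 fold change was -1.57 ± 1.46 (SE; adjusted p 0.565). It was -1.03 without PAP animal 1, -2.45 without PAP animal 3, -2.25 with the block and -2.75 with voom, and none of these passed.

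Dgat2 (chromosome 7, 99153658 to 99182719, minus strand) had 447, 362 and 586 counts in Astro and 0, 1 and 151 in PAP. PAP animal 3 held nearly all PAP counts, in all 8 technical replicates at 14 to 27 counts each. Its level there, 49.7 CPM, was above the 29.6 CPM of Astro animal 3, a log2 ratio of 0.75, while the other PAP libraries had at most 1 count. The log2 fold change was -0.57 ± 1.90 (SE; adjusted p 0.892). Its size depended on the fit, at -0.03 without PAP animal 1, -0.06 without PAP animal 2, -4.37 with the block and -3.81 with voom, none of which passed. Without PAP animal 3 the other PAP libraries held 1 count, which gives no usable fold. Dgat2 then entered through its Astro counts alone, and no call is read from that fit.

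**Figure D3:**
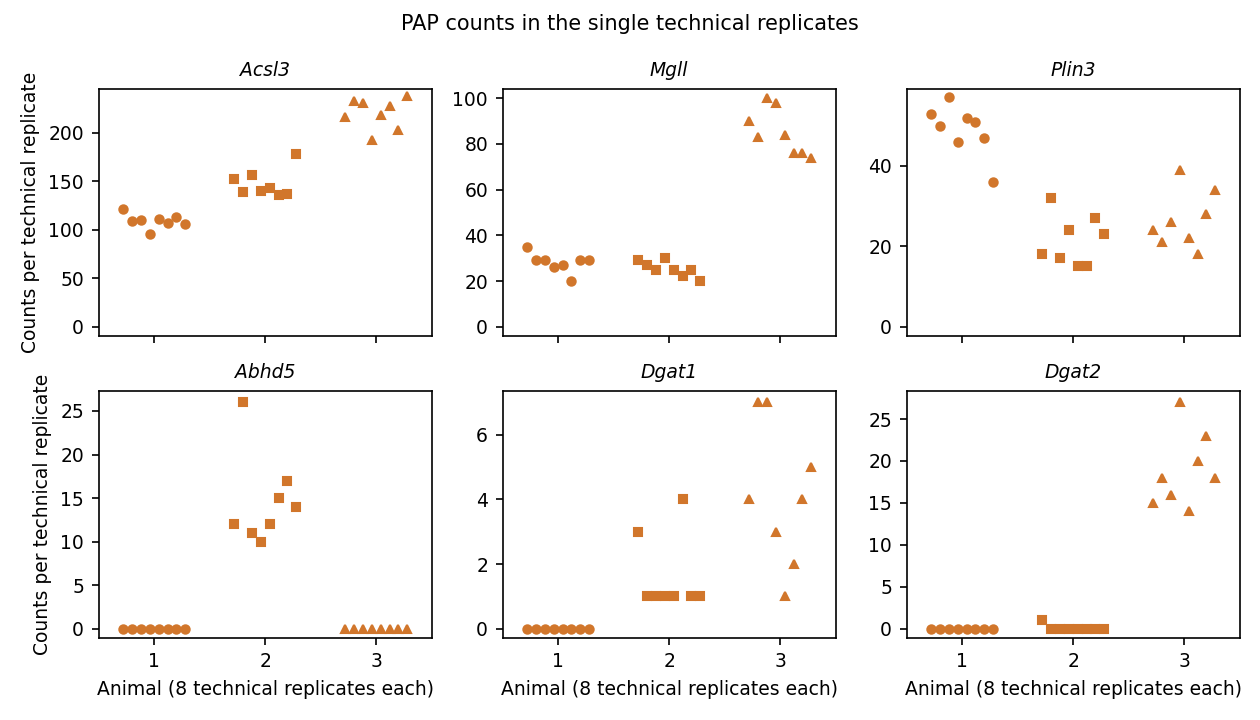
Counts of 6 genes in the 24 single PAP technical replicates, 8 per animal, with a count axis per gene. Abhd5 counts come from animal 2 alone and all but 1 of the Dgat2 counts from animal 3, in every technical replicate of that animal, while Acsl3, Mgll and Plin3 have counts in all 24.

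The pattern of detection in PAP therefore differed by animal for part of the genes. In PAP animal 1, 3 of the 10 genes were above 3 counts and 5 were at 0. In animals 2 and 3, 5 genes were above 3 counts, and 2 and 4 were at 0. Counts in technical replicates 1 to 4 and 5 to 8, summed separately, were 59 and 58 for Abhd5 in PAP animal 2 and 76 and 75 for Dgat2 in PAP animal 3, so these genes were seen alike in both sets of technical replicates. Technical replicates come from the same preparation, so this agreement does not bear on differences between preparations.

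Markers of astrocytes and of other cell types were measured beside these genes. The 13 astrocyte markers summed to 28473 to 41374 CPM in Astro and 4724 to 18719 CPM in PAP; 5 were called lower, none was at 0 in all PAP libraries, and their sum was lowest in PAP animal 1. The 12 microglial markers summed to 46.3 to 97.2 CPM in Astro and 32.3 to 96.7 CPM in PAP, with Cx3cr1, P2ry12, Tmem119, Aif1 and Itgam at 0 in every PAP library; 9 were tested and 3 called lower. The 10 neuronal markers summed to 1030 to 1659 CPM and 513 to 1334 CPM, overlapping sums, with 1 called lower and 1 higher. The 8 oligodendrocyte markers summed to 793 to 854 CPM and 495.5 to 1010 CPM, which overlapped as well. The 7 endothelial markers stayed at 13.0 CPM or less in Astro and 24.4 CPM or less in PAP. Of 5 adipocyte markers, Adipoq, Adig and Cfd were at 0 in every PAP library, and the sum was at most 18.5 CPM, in PAP animal 2. In Astro, Lep, Retn, Adig and Cfd were at 0 in every library, and the sum was at most 0.051 CPM. The 6 B-lineage markers summed to 15.8 to 29.9 CPM in Astro and 1129 to 2610 CPM in PAP; 4 were tested, 1 called lower and 2 higher. Of all genes tested, 15.4% were called lower and 5.92% higher, and nothing is read from the calls of so few markers. The part of these marker differences in the levels of the lipid genes was not tested.

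Other genes of lipid storage and fatty acid handling were taken from 5 lists of 68 symbols, of which 67 were matched (all but Ldaf1) and 56 passed the filter. Of these 56, 8 were called lower and 3 higher in PAP, against 15.4% and 5.92% of all genes tested. The same shares stand beside the called counts of each list below, from which nothing is read. For the 56, the values are as follows. The median log2 fold change of the 56 was -1.09. With the replicate block 1 gene was called lower and 0 higher, against the 0.0342% and 0.876% of all genes in that fit. Among the called genes, Cidea, Cideb and Prkaa2 had at most 3 counts in each PAP library and so passed the filter through Astro alone, and nothing is read from their part in the counts. Without Astro animal 1, 2 or 3, respectively 0, 1 and 1 of the 8 lower calls were made and none of the 3 higher ones, beside 0.889%, 0.993% and 1.09% of all genes called in either direction.

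Among 16 genes of droplet coats and droplet formation, 11 were tested, 2 were lower and 1 was higher, with a median log2 fold change of -1.16. Cideb, of the CIDE family of droplet proteins, had 1107, 710 and 465 counts in Astro and 1, 3 and 0 in PAP, a summed share 71.4-fold lower (95% exact Clopper-Pearson interval 27.8 to 262, counting error only). Cidea, of the same family, had 96, 170 and 88 counts in Astro and 0, 0 and 2 in PAP. Both are described by these counts only, for the reason given above. Aup1, a droplet and endoplasmic reticulum protein, rose from 83.2 ± 16.2 to 305 ± 26.2 CPM (SD, n = 3; adjusted p 0.0208, and 0.206 with the block). Exons of Cideb and Aup1 overlap genes on the opposite strand over 76.3% and 23.0% of their length, and the strand setting of the counting is not stated. Bscl2, which encodes seipin, stood at 82.6 ± 16.2 CPM in Astro and 54.3, 5.13 and 51.6 CPM in PAP, with an adjusted p of 0.468. Ldah, a droplet hydrolase gene, stood at 123 ± 21.3 CPM in Astro and 70.2 ± 44.3 CPM in PAP (SD, n = 3; adjusted p 0.412, and 0.0372 without PAP animal 3).

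Among 19 genes of acyl-CoA formation and glycerolipid synthesis, 17 were tested, 2 were lower and 1 was higher, and the median log2 fold change was 0.10. The acyl-CoA synthetase genes went in both directions. Acsl6, a synthetase gene known for its role in brain docosahexaenoic acid, had 846, 681 and 566.5 CPM in Astro and 54.3, 96.9 and 60.2 CPM in PAP. It fell by 3.31 ± 0.36 (SE) on the log2 scale (adjusted p 0.00702). It was the one listed gene that also passed with the replicate block (adjusted p 0.0403), and it did not pass with voom (0.215) or without Astro animal 1 (0.0512). Acsbg1 fell from 1129 ± 207 to 393 ± 207 CPM (SD, n = 3; adjusted p 0.0448, and 0.206 with the block). Its call was made in 6 of 15 alternatives, and was lost with library totals alone (0.0563), voom (0.297), equal depth (0.0922) and without PAP animal 1 (0.0577) or 2 (0.094). Acsl5 had 441, 352 and 648 counts in Astro and 203, 232 and 406 in PAP, and it rose from 25.6 ± 6.34 to 118.5 ± 15.2 CPM (SD, n = 3; adjusted p 0.0223, with the block 0.206, with voom 0.0635 and with no filter 0.0716). The log2 fold change of Acsl3, given above, lay between those of Acsbg1 and Acsl5. The acyltransferase genes Agpat3 and Agpat5 had log2 fold changes of -0.35 ± 0.32 and 0.35 ± 0.30 (SE), with adjusted p of 0.55 and 0.517.

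Among 12 other hydrolase genes, 8 were tested, 1 was lower and 1 was higher, and the median log2 fold change was -1.03. Ddhd2, which encodes a triglyceride hydrolase known from brain, had 170, 206 and 109 counts in Astro and 200, 61 and 442 in PAP. Its mean rose from 8.87 ± 3.27 CPM to 92.7 ± 57.6 CPM (SD, n = 3), or by 3.38 ± 0.81 (SE) on the log2 scale (adjusted p 0.0293, with the block 0.206 and with no filter 0.0621). All PAP libraries, at 101.5, 31.3 and 145 CPM, lay above the Astro libraries. Daglb, a diacylglycerol lipase gene, fell from 269.5 ± 16.5 to 87.3 ± 16.3 CPM (SD, n = 3; adjusted p 0.0208, with the block 0.206 and with voom 0.155), and 24.1% of its exonic bases overlap Rac1 on the opposite strand. Abhd6 and Abhd12, whose products also hydrolyse monoglycerides, had log2 fold changes of -0.63 ± 0.79 and -0.76 ± 0.61 (SE), with adjusted p of 0.681 and 0.499. Nceh1 was at 0 in PAP animals 1 and 3 and at 38 counts in animal 2 (adjusted p 0.749), so it needed its Astro counts to pass the filter. Without PAP animal 2 the PAP libraries left were at 0, and no call is read from that fit.

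Among 8 genes of fatty acid uptake and binding, 7 were tested, all with negative log2 fold changes (median -1.58), as were 8904 of all 14618 genes tested (median -0.53), and 2 were called lower. Slc27a1, a fatty acid transport protein gene, fell from 309 ± 76.7 to 66.2 ± 28.6 CPM (SD, n = 3; adjusted p 0.0208, with the block 0.199 and with voom 0.396). Fabp5, a fatty acid binding protein gene, fell from 325 ± 42.3 to 140.3 ± 2.55 CPM (SD, n = 3; adjusted p 0.0238, with the block 0.206, with voom 0.29 and at equal depth 0.0514). Fabp7 and Dbi, abundant lipid-binding protein genes of astrocytes, had PAP levels that differed widely between animals, at 19.3, 92.8 and 254 CPM for Fabp7 and 363.5, 1681 and 2958 CPM for Dbi, and did not pass (adjusted p 0.238 and 0.171). Fabp7 passed without PAP animal 3 (0.0426) and Dbi without PAP animal 1 (0.037).

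Among 13 transcription regulators and kinases of lipid metabolism, all were tested and 1 was lower, with a median log2 fold change of -1.27. Prkaa2, which encodes a catalytic subunit of AMP-activated kinase, had 211, 198 and 408 counts in Astro and 2, 0 and 1 in PAP, a summed share 34.1-fold lower (95% exact Clopper-Pearson interval 11.6 to 166, counting error only), which is a description for the same reason as for Cidea and Cideb. Prkaca and Prkacb, the catalytic subunit genes of the kinase that activates hormone-sensitive lipase, had log2 fold changes of -1.36 ± 0.60 and -1.27 ± 0.98 (SE) and did not pass (adjusted p 0.189 and 0.477). Prkaca passed without PAP animal 3 (0.0194) and Prkacb without PAP animal 1 (0.0399). Foxo1 ranged from 2.05 to 442 CPM over the PAP libraries, with an adjusted p of 0.707. Nr1h2, a liver X receptor gene, stood at 107 ± 14.0 CPM in Astro and 29.3 ± 33.9 CPM in PAP (SD, n = 3; adjusted p 0.269, and 0.0288 without PAP animal 1).

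**Figure D4:**
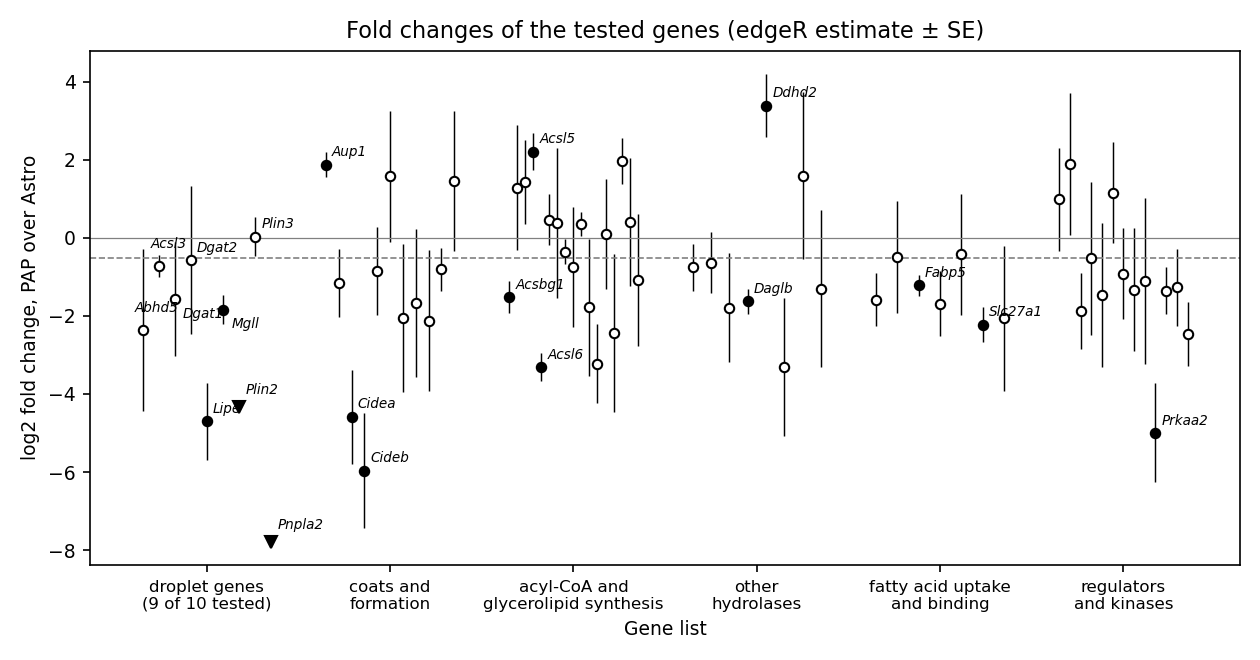
Log2 fold change of PAP over Astro (edgeR estimate with SE) for the tested genes of each list; filled symbols have an adjusted p under 0.05, triangles mark the bound for genes at 0 in every PAP library, and the dashed line is the median of all genes tested, -0.53. Among the 9 tested droplet genes, Plin3 lies at 0.03 and the others below 0, and the other lists hold called genes on both sides of 0 or below it.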

How the data were processed

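The deposited values are raw counts per Ensembl gene, per the file headers, 1 file for each of 48 technical replicates, with no scaling by the authors. The submitters' processing notes name bcl2fastq 2.18.0.12, Trim Galore 0.4.1, STAR 2.5.2b, SAMtools, HTSeq 0.5.3 and the build mm10; strand setting and annotation are not given in the sources used here. Per the labels' protocols, RNA was amplified with SMART-Seq v4 and libraries were made with Nextera XT. No molecular identifiers are named, so intervals and floors (3 counts, after TMM scaling 0.152 to 0.175 CPM for Astro, 0.987 to 1.54 CPM for PAP) cover counting error only.

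Technical replicates were summed per animal and compartment. Symbols, positions and exonic lengths came from GENCODE M21 on GRCm38, which held 47224 of the 47643 IDs. Genes passing filterByExpr (minimum count 10) were fitted with edgeR 4.0.16 in R 4.3.3 (quasi-likelihood test, TMM factors, group alone) and p-values were adjusted by Benjamini-Hochberg at 0.05. The method was run on simulated counts that had the same dispersion in both groups. The biological coefficient of variation was 0.335 in Astro and 1.61 in PAP. The simulation therefore cannot check calls under this unequal spread, and nothing is concluded from it. Alternatives used DESeq2 1.42.0 and limma 3.58.1, other scalings and filters, equal depth, technical replicates 1 to 4 or 5 to 8 alone and each library left out. The labels give both libraries of a number to the same animal, which is where the pairing comes from; deviations of such libraries from their group means correlated at -0.027 to 0.033. Named are the 10 genes and, from each list, genes with an adjusted p under 0.05 and the 4 highest in Astro, up to 30 genes. The genes and lists were chosen with earlier results of these data known.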

Additional observations from a re-analysis of the deposited data

How the results depend on the processing

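The biological coefficient of variation was 0.335 in Astro and 1.61 in PAP, and the lower depth of PAP limits any statement below 0.987 to 1.54 CPM. With the replicate block, 1 of the 10 genes (Pnpla2, chosen for its PAP counts) and 1 of the other pathway genes were called lower and 0 higher, at a median of -1.63 over all genes tested. Leaving out 1 library at a time gave 0 to 5 of the 10 genes lower, and 0 to 18 lower and 0 to 4 higher pathway genes. The fits with fewer Astro libraries gave the lowest counts. Without PAP animal 1, 2 or 3, respectively 25.4%, 24.6% and 27.8% of all genes tested were called in either direction, against 21.3% with all libraries. In the fits with 5, the added gene was Abhd5 (without PAP animal 2) or Dgat2 (without PAP animal 3), for which no call is read. Of the 4 genes called lower among the 10, voom also called 3 (Pnpla2, Lipe and Plin2), whose calls are not read as results. Voom left out Mgll (adjusted p 0.0682) and added Abhd5 (0.0331), which had more than 3 counts in 1 PAP library. For the pathway genes, 4 were lower with voom and 4 at equal depth, and 1 was higher with no filter. The cause was not tested. Other settings gave counts within 1.5 times of those reported. Over all genes tested, 3115 were called, against 133 with the block, 5141 with DESeq2, 1703 at equal depth and 115, 128 and 140 without Astro animals 1, 2 and 3. The median of all genes, -0.53, became -0.38 with library totals alone, -0.22 at equal depth, -1.04 with no filter, -1.62 with voom and -0.86 to -0.95 without 1 PAP library. Plin3 changed sign with the replicate block (-0.127), with voom (-0.207), with no filter (-0.137) and in technical replicates 1 to 4 (-0.056), and ran from -0.603 to 0.238 with 1 library left out. Foxo1 changed sign with the block (-0.181) and with voom (-0.657), and ran from -0.216 to 1.505 with 1 library left out. Of 494 values of named genes under these alternatives, 398 kept their direction and their side of the threshold, 77 no longer passed, 11 newly passed and 8 changed sign.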

Other observations

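Beside Pnpla2, the genes with at least 100 CPM in Astro and 0 counts in all 3 PAP libraries included Sdc2 and Nudt2, which were named after their values were seen. Sdc2, a syndecan gene, had 3676, 2984 and 2303 counts in Astro, and Nudt2 had 1883, 1760 and 2238. Neither belongs to the lipid lists described above.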
